A study of Mus musculus with 113 samples.

Results

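Collagen genes were taken as the rows of the 4 deposited gene tables whose symbol is Col, a number, the letter a and a number. There were 44 such genes among 23739 gene symbols: 27 in the table of SFEB populations, 30 in that of the adherent monoculture, 44 in that of E14 cells and 14 in that of single cells, with 12 in every table. They were separated into 11 fibrillar collagens, 6 basement membrane collagens (the type IV chains) and 27 other collagens. RNA-seq had been done on mouse ES cells turning into neural progenitors and neurons, in 113 samples. R1 ES cells, a wild-type line, were differentiated as serum-free floating aggregates (SFEB) in a first series of 14 libraries from 0 to 142 h and a parallel series of 8 libraries from 0 to 216 h. Single cells, 8 at each of the same 8 times as the parallel series, made 64 further libraries, and R1 cells in adherent monoculture gave 15 libraries from 0 to 216 h. Each time of a course was 1 library. Both protocols replated the cells on laminin and fibronectin on day 6. E14 ES cells, wild type (WT) or with a CRISPR deletion in *Fyn*, the gene of a Src family kinase (*Fyn* KO), gave 3 libraries each on day 0 and day 4 of neural induction. The *Fyn* KO line was 1 clone, and the labels do not say whether the 3 replicates were separate cultures, so that p-values cover only the spread between these libraries. For the E14 samples the labels name both protocols and not the one followed.

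Collagens are triple helices of alpha chains that are hydroxylated and folded in the endoplasmic reticulum, secreted, trimmed and cross-linked outside the cell. Fibrillar collagens, led by types I and III, build the fibrils of connective tissue and are made chiefly by fibroblasts and other mesenchymal cells; type II is the fibril of cartilage and notochord and is also made in the early neural tube. Type IV chains form the sheet-like network of basement membranes together with laminin, nidogen and perlecan, and the primitive endoderm of the mouse embryo secretes them in bulk. ES cells are commonly kept on feeder layers of embryonic fibroblasts. Here the R1 cells had been passaged once without feeders before differentiation.

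A few libraries stood apart and are named before the results. In the adherent monoculture, the 144 h library held 203.5 FPKM of *Acta2* and 174.8 FPKM of *Tagln*, genes of smooth muscle and contractile fibroblasts, against 22.1 and 11.98 FPKM in the library of 140.5 h. Among E14 cells, *Fyn* KO day 0 replicate 3 held 60.7 FPKM of *Col18a1*, and the 2 other replicates 3.11 and 6.74 FPKM. WT day 4 replicate 1 held 26.8 FPKM of *Pax6*, a gene of neural progenitors, against 3.71 and 6.77 in the 2 other replicates. *Fyn* itself read 2.74 to 4.00 FPKM in WT day 0, 4.54 to 9.44 in WT day 4, 0.598 to 1.10 in *Fyn* KO day 0 and 1.13 to 1.58 in *Fyn* KO day 4, so that all 6 *Fyn* KO libraries lay below all 6 WT libraries. The deletion leaves later exons that can still be counted. The tables hold FPKM, fragment counts scaled to transcript length and library size, so that levels can be compared between genes, and read depth is not given. In the table of SFEB populations these values had been batch-corrected, and 5 values of *Col8a1* and *Col10a1* that the correction had put below 0 were set to 0.

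In all 3 courses 12 collagen genes, chains of the fibril-forming types I, III and V and of types VI, VII, VIII, XII and XVI, were high in the libraries of the first day and low after the first days. The collagens of the first SFEB series summed to 1089.6 FPKM at 0 h, 0.249% of the table's total, and to 116 FPKM at 142 h, 0.0249%. Fibrillar collagens made up 772 FPKM of the former and 57.1 of the latter, basement membrane collagens 87.4 and 31.2, and other collagens 229.8 and 27.8. In the adherent monoculture the fibrillar sum went from 368 to 79.3 FPKM between 0 and 216 h and that of the basement membrane collagens from 39.7 to 444, so that the classes changed places. In the first SFEB series *Col1a1*, the alpha1 chain of type I collagen (mm9 chr11:94797538-94814356, plus strand), stood at 315.9 FPKM at 0 h, 284 at 1 h, 179 at 2 h, 127 at 8 h, 46.3 at 22 h and 15.9 at 34 h. From 42.5 h on its 8 libraries lay between 0.743 and 5.21 FPKM, so that no late library reached any early one. The parallel series went from 291.8 FPKM at 0 h over 115 at 9 h and 18.7 at 38 h to 10.1 at 144 h, with 27.0 at 216 h. In the adherent monoculture *Col1a1* read 152 FPKM at 0 h, 33.0 at 20.5 h and between 11.7 and 21.9 from 53.5 h on. *Col3a1*, type III collagen of elastic tissues (mm9 chr1:45368383-45406551, plus strand), fell from 108 to 1.05 FPKM in the first series and from 105 to 1.93 at 106 h in the parallel series, then read 33.9 FPKM at 216 h. Its adherent course was slower, from 31.7 FPKM at 0 h and 29.5 at 20.5 h to 5.61 at 216 h.

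**Figure D1:**
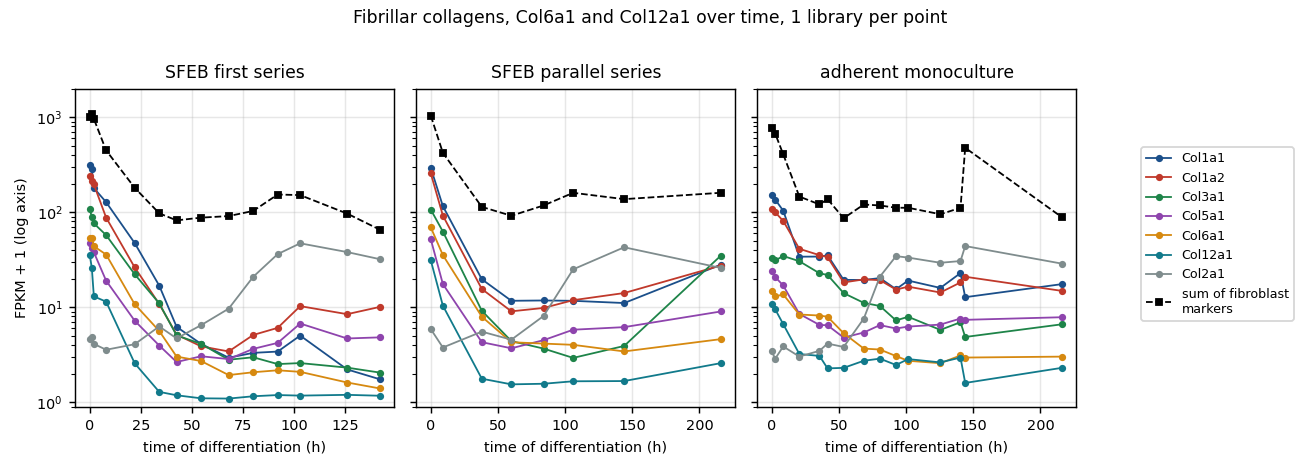
Level of 5 fibrillar collagens, *Col6a1* and *Col12a1*, and the summed level of the fibroblast markers (dashed), as FPKM + 1 on a log axis against time in hours, in the 3 courses; each point is 1 library. *Col1a1* dropped from 315.9 to 0.743 FPKM in the first SFEB series while *Col2a1* went from 3.59 to 31.0 FPKM, and the fibroblast markers of the adherent course stood out at 144 h.

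Each gene was put in a course class by the medians of the libraries up to 22 h and from 100 h on, which had to differ at least 2-fold on FPKM + 1. By this rule 16 of the 27 collagen genes of the first series were early high, as were 13 of 27 in the parallel series and 13 of 30 in the adherent monoculture; over all genes of these tables the shares were 12.3%, 7.41% and 8.43%. Late high were 1, 1 and 3 collagens, beside 13%, 10.6% and 13.6% of all genes. The same 12 genes were early high in all 3 courses, namely *Col1a1*, *Col1a2*, *Col3a1*, *Col5a1*, *Col5a2*, *Col6a1*, *Col6a2*, *Col6a3*, *Col7a1*, *Col8a1*, *Col12a1* and *Col16a1*. The drop was 81.2-fold for *Col1a1*, 33.0-fold for *Col3a1* and 27.2-fold for *Col6a1*, a chain of the beaded filaments of type VI collagen, in the first series, and 6.85-fold, 4.82-fold and 4.51-fold in the adherent monoculture. *Col12a1*, which sits on type I fibrils, went from 34.3 FPKM at 0 h to 0.169 at 142 h in the first series, the lowest end level among these 12. The highest and lowest values of the others in the first series were 45.9 and 1.65 FPKM for *Col5a1*, 54.0 and 1.39 for *Col5a2*, 27.8 and 1.18 for *Col6a2*, 20.7 and 0.265 for *Col6a3*, 20.5 and 0 for *Col8a1*, 11.9 and 0.182 for *Col16a1* and 4.22 and 0.494 for *Col7a1*, the anchoring fibril collagen. For *Col1a2* they were 236.9 and 2.42 FPKM, and for *Col6a1* 52.7 and 0.395. The 2 series of SFEB shared a protocol, a table and a batch correction, and each course had 1 library a time, so the classes are a description.

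**Figure D2:**
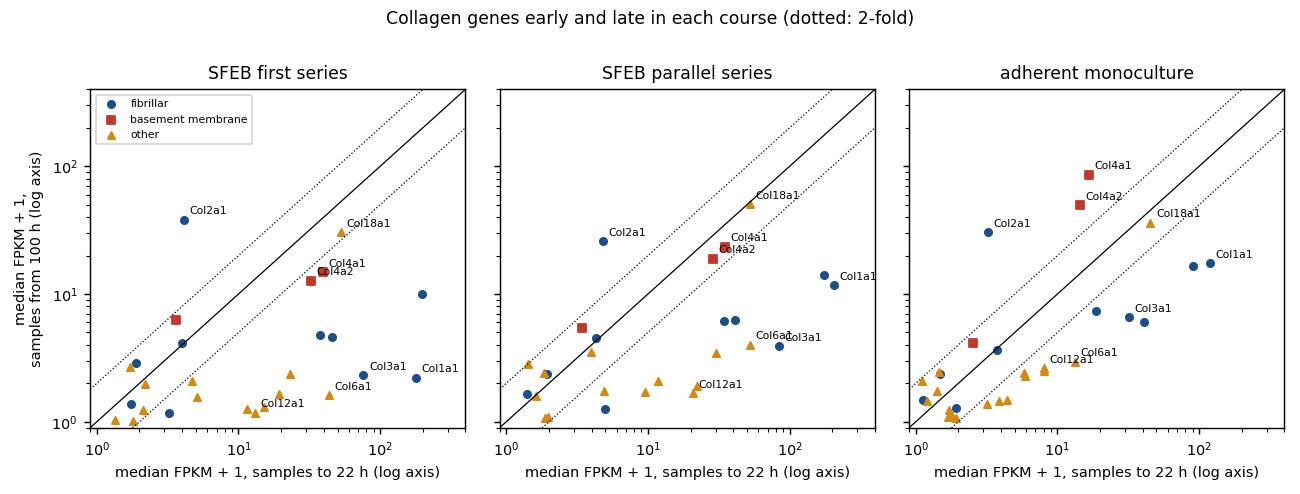
Median FPKM + 1 of the libraries from 100 h on against that of the libraries up to 22 h, both on log axes, for each collagen gene in the 3 courses; colours and shapes give the class, the solid line equality and the dotted lines 2-fold. The 12 genes that were early high in all 3 courses lie below the lower dotted line, *Col2a1* lies above the upper one in all 3 panels, and *Col4a1* and *Col4a2* lie above it in the adherent monoculture.

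The early-high collagens ran with several marker lists across libraries, that of fibroblasts among them. The list of 16 fibroblast markers, none of them a collagen, summed to 998 FPKM at 0 h and 64.4 at 142 h in the first series, with 14 of 16 falling by a straight-line fit over time (limma), beside 24.7% of all genes. In the parallel series the sum went from 1037 to 90.7 FPKM at 60 h and 159 at 216 h, and 3 of 14 tested fell, near the 18.5% of all genes. In the adherent monoculture 9 of 15 fell and 1, *Twist1*, rose, beside 24% and 35.8% of all genes. Across the 14 libraries of the first series Pearson's r between an early-high collagen and the mean of the markers ranged from 0.62 to 0.99 with a median of 0.96, and the 13 early-high genes of the parallel series had r from 0.91 to 0.99; libraries of a course share their culture and their order in time, so these are descriptions. In the first series the same 16 collagens ran with the mean of the primitive endoderm markers at r from 0.51 to 0.98 and with that of the pluripotency markers at r from 0.44 to 0.93, and all 8 pluripotency markers fell, beside 24.7% of all genes, such as *Esrrb* from 107.5 to 3.64 FPKM. In the parallel series these ranges were -0.27 to 0.33 and 0.43 to 0.86, and in the adherent monoculture -0.75 to -0.15 and 0.60 to 0.98, beside 0.63 to 0.99 for the fibroblast markers. Over the 22 SFEB populations the 5 genes outside the family whose level ran most like that of *Col1a1* were *Emp1*, *Igfbp7*, *Fbln2*, *Ly6a* and *Bgn*, with r from 0.981 to 0.988. What part cells carried over from the feeder layer, or any of these cell types, had in the values was not tested, and in bulk libraries fewer cells of a type and less RNA per cell cannot be told apart.

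In E14 cells the same 12 collagens were low. *Col1a1* stayed between 0.0231 and 1.01 FPKM in all 12 libraries, and *Col1a2* between 0.0194 and 3.67, both highest in WT day 4 replicate 1. *Col5a1* ran from 0.593 to 2.41 FPKM, *Col5a2* from 0.0322 to 5.29 and *Col6a2* from 0 to 1.25, and the other 7 stayed below 1 FPKM, with 0.870 of *Col6a1* the highest. Of the 16 fibroblast markers, *Postn* was listed at 0 in 11 of the 12 libraries, *Mgp* in 11, *Lum* in 10 and *Fap* in 10, and the whole list summed to 5.27 to 48.5 FPKM, of which *Fstl1* gave 1.81 to 29.8 FPKM. Others were above 0 in every library, such as *Thy1* with up to 7.23 FPKM and *Tagln* with up to 13.4, and *Thy1* rose in both genotypes and *Tagln* in *Fyn* KO between the days. Tables were normalised separately, so this is set beside the R1 values without a test.

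Fitted as a straight line over time on log2(FPKM + 1) and adjusted over all genes, 19 of 25 collagen genes tested in the first series passed an adjusted p of 0.05 (limma), 16 falling and 3 rising. Of all genes tested there 55.2% passed, 24.7% falling and 30.4% rising. The parallel series had 7 of 22 past the threshold, 6 falling and 1 rising, beside 44.5% of all genes, 18.5% falling and 26% rising. The adherent monoculture had 22 of 25, 15 falling and 7 rising, beside 59.8% of all genes, 24% falling and 35.8% rising. The median slope of the collagens tested was -0.28, -0.17 and -0.13 log2 units per 24 h in the 3 courses, and that of all genes 0.01, 0.01 and 0.02. With no filter on low values 17 collagens fell and 3 rose of 27 in the first series, 7 and 2 of 27 in the parallel series, and 17 and 9 of 30 in the adherent monoculture. Without that filter 24.7%, 17.6% and 23.5% of all genes fell and 31.1%, 27.3% and 36.6% rose, in the same order. The steepest fall was that of *Col1a1* in the first series, by 1.25 ± 0.16 log2 units per 24 h (SE, adjusted p = 1.2e-05). In the parallel series the slope of *Col1a1* was -0.32 ± 0.16 (limma, adjusted p = 0.14) and that of *Col3a1* -0.21 ± 0.21 (adjusted p = 0.43). A curved fit with 3 terms called 20 of the 22, beside 72.2% of all genes. Without the 216 h library, in which both read higher than at 144 h, *Col1a1* and *Col3a1* were called. Without the 0 h library 2 collagens fell in the parallel series, *Col18a1* and *Col6a5*, and 3 rose, *Col2a1*, *Col11a1* and *Col4a5*. Of all genes 21.1% fell and 28.7% rose in that fit. The falls of *Col6a1*, *Col6a2* and *Col6a3* were not called in it (-0.26, -0.23 and -0.27, limma, adjusted p = 0.089, 0.062 and 0.073), and *Col7a1* did not pass the filter on low values. Each time had 1 library, so the scatter around the line stood in for replicate error.

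The start of *Col1a2*, the other chain of type I collagen, is shown because both chains moved together. *Col1a1* and *Col1a2* lie on different chromosomes (11 and 6), yet over the 14 libraries of the first series their log2 levels ran with r = 0.94, and over the 8 of the parallel series with r = 0.99. CCAAT, the sequence bound by the factor NF-Y, is in capitals in the 300 bases around the start of *Col1a2* (RefSeq, GRCm38.p6, chr6:4505368-4505667, plus strand, from 250 bases before the start to 50 after it), read on both strands, so that ATTGG is marked too.
*Col1a2*: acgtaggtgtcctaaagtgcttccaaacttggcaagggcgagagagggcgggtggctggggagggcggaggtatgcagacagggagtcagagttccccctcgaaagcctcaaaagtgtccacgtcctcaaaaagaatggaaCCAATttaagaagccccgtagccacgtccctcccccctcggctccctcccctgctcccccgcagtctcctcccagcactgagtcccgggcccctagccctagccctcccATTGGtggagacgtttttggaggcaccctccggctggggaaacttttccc
The window holds 2 such sites, and that of *Col3a1* in the same table holds 0. Over the 38 windows of 35 collagen genes 34.2% hold CCAAT, against 37.4% of all 32851 windows, while GGGCGG, the box read by Sp1, is in 60.5% against 35.7%, and TATAAA in 13.2% against 13.6% (all searched on both strands, and none of the 3 contains another). These are counts of letters in a window.

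*Col2a1*, the alpha chain of type II collagen (mm9 chr15:97806033-97835155, minus strand), took the opposite course and was the one collagen that was late high in every course. In the first series it read 3.59 FPKM at 0 h, 2.56 at 8 h, 5.27 at 34 h, 8.65 at 68 h, 19.9 at 80 h and 46.0 at 103 h, then 37.0 and 31.0 at 126 and 142 h. The parallel series gave 4.88 FPKM at 0 h, 3.55 at 60 h, 7.08 at 84 h, 24.02 at 106 h, 41.7 at 144 h and 24.9 at 216 h. The adherent monoculture held 1.87 to 3.14 FPKM up to 53.5 h, 19.97 at 80.5 h and 27.7 to 43.0 from 92.5 h on. Early and late libraries thus did not overlap in any course, and the level stayed above 5 FPKM from 54.5, 84 and 68.5 h on. The slope was 0.66 ± 0.07 log2 units per 24 h in the first series (SE, limma, adjusted p = 2.3e-06), 0.37 ± 0.08 in the parallel series (adjusted p = 0.0063) and 0.53 ± 0.08 in the adherent monoculture (adjusted p = 2.7e-05). Across the libraries of each course its log2 level ran with the mean of the neural progenitor markers at r = 0.93, 0.93 and 0.96 (n = 14, 8 and 15). With the mean of the primitive endoderm markers r was -0.47, 0.82 and 0.72. Of that list in the parallel series, *Foxa2* went from 0 FPKM at 0 h to 18.2 at 216 h, *Pth1r* from 1.62 to 6.04 and *Srgn* from 1.175 to 1.721. *Gata4*, *Gata6*, *Dab2*, *Amn* and *Thbd* ended below their 0 h values there. Brachyury (T), a gene of mesoderm and notochord, read 2.47 FPKM at 0 h, 11.4 at 103 h and 3.33 at 142 h in the first series and 27.6 at 106 h in the parallel series. In the adherent library of 144 h T stood at 22.7 FPKM, and *Shh* and *Foxa2*, genes of notochord and floor plate, at 11.9 and 13.6. The part of such cells in the *Col2a1* values was not tested. Over the 22 SFEB populations the genes most like it were *Pknox2*, *Poc1b*, *Crb2*, *Epha7* and *Megf6*, with r from 0.962 to 0.985.

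The partners of type II collagen in cartilage did not share its whole course. *Col11a1*, the type XI chain that starts type II fibrils, went from 4.69 FPKM at 0 h to 0.228 at 42.5 h and back to 3.75 at 142 h in the first series, and its slope over the whole course was 0.05 ± 0.11 (limma, adjusted p = 0.73). *Col9a2*, a type IX chain of the fibril surface, fell by 0.23 ± 0.05 log2 units per 24 h in that series (limma, adjusted p = 0.00081) and in the adherent monoculture by 0.17 ± 0.06 (adjusted p = 0.020), with a slope of -0.04 ± 0.04 in the parallel series (adjusted p = 0.33). Its highest adherent library was nonetheless that of 144 h, with 6.48 FPKM, against a median of 4.92 up to 22 h. *Col9a3* had slopes of -0.01, 0.06 and 0.04 in the 3 courses, none of them called. Of the 5 cartilage and notochord markers in the SFEB table, *Sox9*, *Sox5* and *Sox6* rose in the first series and *Acan*, the proteoglycan of cartilage, fell, beside 30.4% and 24.7% of all genes.

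Further rises appeared when the line was fitted from 34 h on, a choice made after seeing the data. Of the collagens tested, 8 of 18 rose in the first series, 8 of 17 in the parallel series and 8 of 21 in the adherent monoculture, where 36.7%, 33.3% and 33.9% of all genes rose. Those that fell were 6, 1 and 7, beside 26.6%, 24.6% and 16.9% of all genes, and 63.2%, 57.9% and 50.8% of all genes changed in either direction. The genes that rose in all 3 were *Col2a1*, *Col11a1*, *Col4a1*, *Col4a2* and *Col4a5*. *Col18a1* fell in all 3. *Col5a1*, a type V chain, rose in both SFEB series, by 0.19 ± 0.07 log2 units per 24 h (limma, adjusted p = 0.034) and 0.17 ± 0.03 (adjusted p = 0.0029), whereas over the whole first series it had fallen. In the first series *Col1a1* went on falling, to 0.743 FPKM at 142 h, by 0.49 ± 0.12 (adjusted p = 0.0041), while *Col1a2* read 2.42 FPKM at 68 h and 9.07 at 142 h, with a slope of 0.18 ± 0.12 (adjusted p = 0.21). The ratio of *Col1a1* to *Col1a2* was 1.84 at 22 h and 0.0819 at 142 h. In the other courses their slopes from 34 h on were alike in sign, 0.09 ± 0.07 and 0.16 ± 0.06 in the parallel series (limma, adjusted p = 0.29 and 0.046) and -0.12 ± 0.05 and -0.13 ± 0.05 in the adherent monoculture (adjusted p = 0.060 and 0.038). The difference between the chains was not tested.

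*Col4a1* was lowest between 35.5 and 60 h and returned afterwards, and in the adherent cells it went on to pass its starting level. *Col4a1* and *Col4a2* encode the chains of the common type IV network. In the first series *Col4a1* (mm9 chr8:11198423-11312826, minus strand) stood at 46.4 FPKM at 0 h, 6.67 at 42.5 h, 26.2 at 103 h and 12.04 at 142 h. In the parallel series it read 39.4 FPKM at 0 h, 7.28 at 60 h, 25.6 at 144 h and 22.4 at 216 h. Adherent cells had 20.7 FPKM at 0 h, 7.66 at 35.5 h, 21.6 at 80.5 h, 16.97 at 101.5 h, 51.7 at 125.5 h, 85.1 at 140.5 h, 246.8 at 144 h and 274 at 216 h. The 4 adherent libraries from 125.5 h on therefore all lay above the 11 earlier ones, and the SFEB libraries never rose past their own 0 h value. The straight line gave *Col4a1* -0.23 ± 0.10 log2 units per 24 h in the first series (limma, adjusted p = 0.062), 0.01 ± 0.10 in the parallel series (adjusted p = 0.95) and a rise of 0.53 ± 0.09 in the adherent monoculture (adjusted p = 6.1e-05). *Col4a2* rose by 0.47 ± 0.10 there (adjusted p = 0.00051), and without the libraries of 144 and 216 h its slope was 0.26 ± 0.11 (adjusted p = 0.062) and that of *Col4a1* 0.35 ± 0.10 (adjusted p = 0.0068). *Col4a5*, the X-linked chain, rose by 0.20 ± 0.05 (adjusted p = 0.0021), from 1.64 FPKM at 0 h to 7.24 at 144 h and 4.39 at 216 h. In the SFEB series it read 4.68 FPKM at 0 h, 0.306 at 42.5 h and 7.49 at 142 h, and 3.81 at 0 h, 0.378 at 38 h and 4.48 at 144 h, so that unlike *Col4a1* it ended past its 0 h value in the first series. No test was made between the adherent and SFEB tables.

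**Figure D3:**
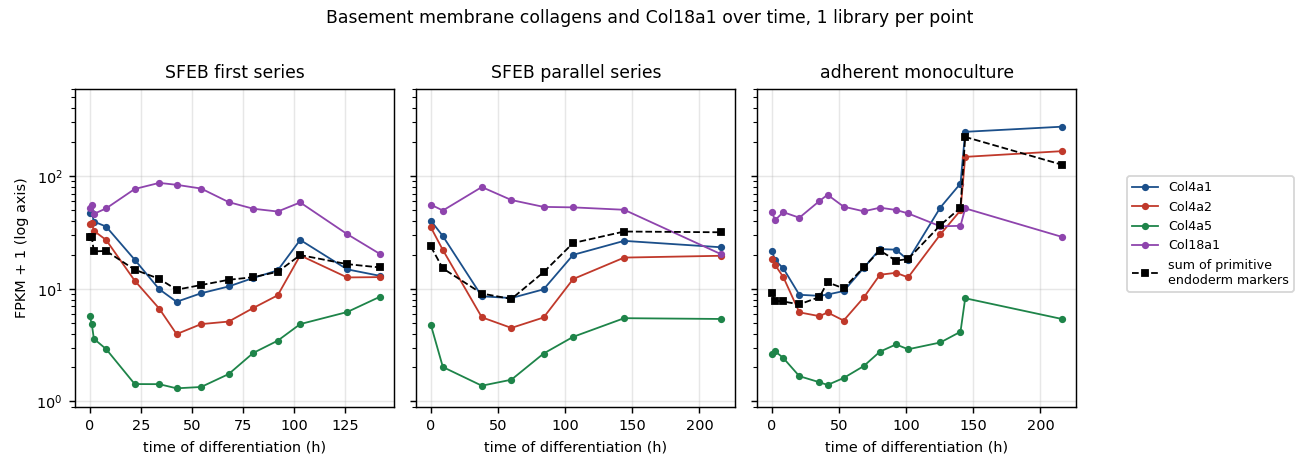
Level of *Col4a1*, *Col4a2*, *Col4a5* and *Col18a1* and the summed level of the primitive endoderm markers (dashed), as FPKM + 1 on a log axis against time in hours, in the 3 courses; each point is 1 library. *Col4a1* dipped to 6.67 FPKM in the first SFEB series and climbed to 274 FPKM in the adherent monoculture, where the endoderm markers climbed with it, and *Col18a1* varied least of the 4 collagens.

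*Col4a1* and *Col4a2* lie head to head on chromosome 8 and are transcribed away from each other, and in RefSeq (GRCm38.p6) their starts are 21 bases apart. The 300 bases around the start of *Col4a1* (chr8:11312777-11313076, minus strand, from 250 bases before the start to 50 after it) are given because they hold the starts of both genes; the 78 bases in capitals (chr8:11312777-11312854) are also in the window of *Col4a2*.
*Col4a1*: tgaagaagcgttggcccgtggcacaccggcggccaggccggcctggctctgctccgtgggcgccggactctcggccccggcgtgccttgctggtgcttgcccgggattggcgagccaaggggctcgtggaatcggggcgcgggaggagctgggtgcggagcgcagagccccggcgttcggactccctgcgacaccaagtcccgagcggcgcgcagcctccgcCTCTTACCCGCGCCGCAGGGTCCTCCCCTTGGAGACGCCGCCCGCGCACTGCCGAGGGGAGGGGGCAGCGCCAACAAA
The log2 levels of both genes ran together at r = 0.98, 0.99, 0.99 and 0.98 over the libraries of the first series, the parallel series, the adherent monoculture and E14 cells. The median ratio of *Col4a1* to *Col4a2* was 1.48, 1.54, 1.65 and 1.59, while in single E14 libraries it spread from 0.162 to 3.29. The libraries kept no strand, and the annotated genes overlap by 22 bases of mm9. Reads in those bases cannot be given to one gene, a small part of either.

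Other basement membrane genes of the adherent course went either way. Of the 13 laminins, nidogens and other partners tested, *Lama1*, *Lamb1* and *Lamb2*, all laminin chains, rose and 4 fell, beside 35.8% and 24% of all genes. *Lama1* went from 6.18 FPKM at 0 h to 73.6 at 144 h and 89.2 at 216 h, and *Lamb1* from 35.9 to 137.0 and 113. *Sparc*, a protein that binds collagen IV, read 205.6 FPKM at 0 h, 39.1 at 53.5 h and 382 at 144 h. Primitive endoderm markers moved with these genes: their sum went from 8.11 FPKM at 0 h over 17.4 at 101.5 h and 51.4 at 140.5 h to 222 at 144 h and 125 at 216 h, and *Sox17* stood at 10.9 FPKM at 144 h after 0.0445 at 35.5 h. Across the 15 libraries the mean of these markers ran with *Col4a1* at r = 0.95 and that of the neural progenitor markers at r = 0.72. In the first SFEB series, where only 8 of the 14 markers are in the table, the sum never passed 27.9 FPKM, and their mean ran with *Col4a1* at r = 0.97, as it did with *Col5a1* at r = 0.98 and *Col1a2* at r = 0.96. In the parallel series the sum reached 31.3 FPKM at 144 h, of which *Foxa2* gave 14.1 and *Pth1r* 7.76, and r with *Col4a1* was 0.73. The part of endoderm cells in the rise of *Col4a1* was not tested.

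*Col18a1*, a proteoglycan of the basement membrane zone and the source of endostatin, was the most abundant collagen from 22 to 103 h of the first series, from 38 to 144 h of the parallel series and from 20.5 to 101.5 h of the adherent monoculture. It read 51.6 FPKM at 0 h, 86.2 at 34 h, 82.8 at 42.5 h and 19.4 at 142 h in the first series, and 54.9, 79.1 at 38 h and 19.3 at 216 h in the parallel series. The adherent course was flatter, with 47.0 FPKM at 0 h, 67.4 at 41.5 h and 27.9 at 216 h. The slope was negative in all 3, by 0.17 ± 0.06, 0.14 ± 0.04 and 0.07 ± 0.03 log2 units per 24 h (limma, adjusted p = 0.028, 0.022 and 0.038). Without the last library each of these calls was lost, with adjusted p = 0.26, 0.63 and 0.37.

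The remaining members were low. *Col6a5*, a type VI chain, was highest at 34 h with 2.62 FPKM in the first series, at 38 h with 1.61 in the parallel series and at 20.5 h with 1.42 in the adherent monoculture, and ended at 0.0259, 0.0675 and 0.0103. *Col22a1*, found at tissue junctions, and *Col27a1*, a fibrillar collagen of cartilage, rose in the first series to 2.29 and 1.88 FPKM at 142 h, with slopes of 0.11 ± 0.05 and 0.11 ± 0.04 (limma, adjusted p = 0.045 and 0.038). Both also rose in the adherent monoculture, as did *Col23a1*, a transmembrane collagen, from 0.106 to 1.41 FPKM. Neither slope of the first series was called with a pseudocount of 0.1 in place of 1 or without the 142 h library.

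In E14 cells 15 of the 44 collagen genes reached 1 FPKM in any library and 7 passed the filter of 1 FPKM in 3 libraries. Between day 0 and day 4 of WT cells *Col4a1*, *Col4a2* and *Col2a1* rose, 3 of the 7 tested, beside 25.8% of all genes called, 15.5% rising and 10.3% falling. *Col2a1* reached 1 FPKM in 1 of the 6 libraries of day 0 and so passed that filter through day 4, where it was higher, so the count is no support; with no filter 7 of 44 collagens were called, beside 17.1% of all genes. *Col4a1* read 2.03, 0.865 and 1.48 FPKM in WT day 0 replicates 1 to 3 and 8.69, 71.1 and 128 in WT day 4, so that the groups did not overlap and the spread within WT day 4 was wide. The mean went from 1.46 ± 0.585 to 69.2 ± 59.5 FPKM (SD, n = 3), and the change was 4.22 ± 0.89 on the log2(FPKM + 1) scale (SE, limma, adjusted p = 0.0062). *Col4a2* read 1.31, 0.597 and 1.55 FPKM on day 0 and 4.73, 37.5 and 68.8 on day 4, a change of 3.56 ± 0.86 (adjusted p = 0.012). *Col2a1* read 0.293, 0.577 and 0.196 FPKM on day 0 and 6.30, 1.17 and 2.70 on day 4, a change of 1.53 ± 0.39 (adjusted p = 0.015) that was not called without WT day 0 replicate 3 (adjusted p = 0.0523). The day 4 libraries set the size of these changes: *Col4a1* changed by 3.46 without WT day 4 replicate 3 and by 5.32 without replicate 1, *Col4a2* by 2.82 and 4.62 without the same libraries, and *Col2a1* by 1.07 without replicate 1 and 1.95 without replicate 2. Of the neural progenitor markers in WT day 4, *Sox1*, *Pax6*, *Hes5*, *Fabp7*, *Sox3* and *Vim* stood highest in replicate 1, the library with the most *Col2a1*. *Sox1* read 47.2, 7.81 and 11.6 FPKM and *Fabp7* 47.4, 0.626 and 7.49 in replicates 1 to 3. *Nes* and *Slc1a3* stood highest in replicate 3, with 5.28, 2.68 and 9.14 FPKM and 6.06, 9.20 and 11.1 FPKM. What part neural progenitors had in the *Col2a1* values was not tested. Replicate 1 of day 4 was lowest in *Col4a1* and highest in *Col2a1*. *Col18a1* read 26.3, 4.93 and 10.7 FPKM on day 0 and 35.1, 72.9 and 41.5 on day 4, with a change of 1.97 ± 0.83 that was not called (adjusted p = 0.10).

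**Figure D4:**
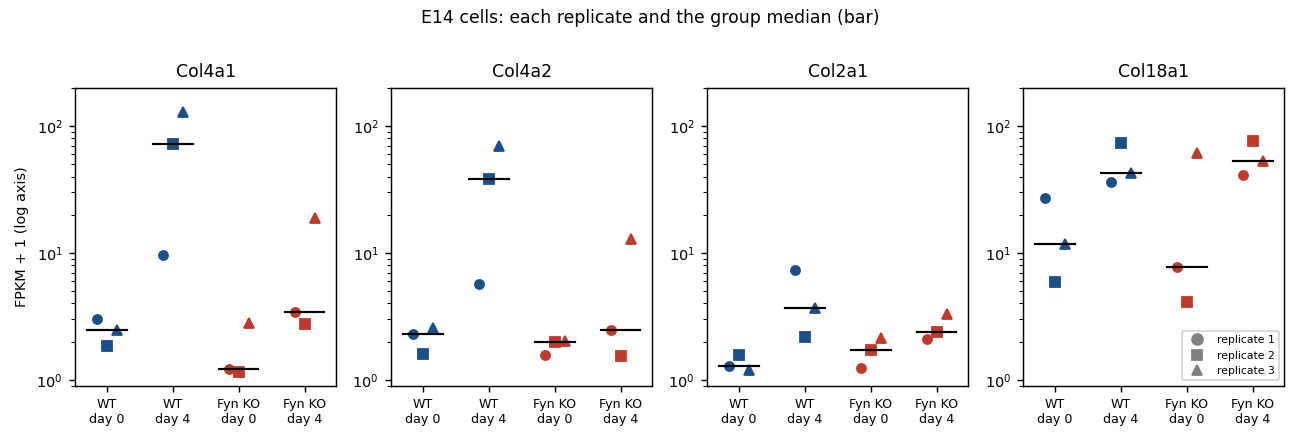
FPKM + 1 on a log axis of *Col4a1*, *Col4a2*, *Col2a1* and *Col18a1* in the 12 E14 libraries, by genotype and day; symbols give the replicate and bars the group median. WT day 4 spans 8.69 to 128 FPKM of *Col4a1*, replicate 3 is the highest *Fyn* KO day 4 library (17.8 FPKM) and lies above WT day 4 replicate 1, and *Fyn* KO day 0 replicate 3 stands apart in *Col18a1* (60.7 FPKM).

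In *Fyn* KO cells none of the 7 collagens was called between day 0 and day 4, where limma called 19.3% of all genes, 11.8% rising and 7.56% falling. *Col4a1* read 0.208, 0.161 and 1.81 FPKM on day 0 and 2.40, 1.78 and 17.8 on day 4, where the lowest library of day 4 lay below the highest of day 0, and its change was 1.83 ± 0.89 (adjusted p = 0.17). *Col4a2* read 0.567, 0.996 and 1.01 FPKM on day 0 and 1.48, 0.541 and 11.96 on day 4, with a change of 0.99 ± 0.86 (adjusted p = 0.44). Replicate 3 of day 4 weighed most on both, and without it the changes were 0.96 and 0.08 (limma, adjusted p = 0.50 and 0.96). *Col2a1* went from a mean of 0.694 ± 0.455 to 1.59 ± 0.638 FPKM (SD, n = 3), a change of 0.62 ± 0.39 (adjusted p = 0.28). At an unadjusted p under 0.05, 3 of the 7 passed, namely *Col18a1*, *Col26a1* and *Col9a2*, as did 4263 of 12257 genes in all. Without *Fyn* KO day 0 replicate 3, the library that stood apart, *Col18a1* rose by 3.29 ± 0.55 (adjusted p = 0.0020) and *Col9a2* by 1.45 ± 0.40 (adjusted p = 0.022).

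On day 4 itself *Fyn* KO had less *Col4a1* and *Col4a2* than WT in the means, 7.32 ± 9.06 against 69.2 ± 59.5 FPKM and 4.66 ± 6.34 against 37.0 ± 32.0 FPKM (SD, n = 3), but neither difference was called. Within each replicate number *Fyn* KO read lower than WT in both genes, and with the replicate number as a block the adjusted p was 0.11 and 0.14 (limma). The difference of *Fyn* KO minus WT was -3.00 ± 0.89 for *Col4a1* (SE, limma, adjusted p = 0.21) and -2.76 ± 0.86 for *Col4a2* (adjusted p = 0.24), and the libraries overlapped, since WT replicate 1 read 8.69 FPKM of *Col4a1* and *Fyn* KO replicate 3 read 17.8. With 1 library left out at a time, the difference ran from -4.1 to -2.235 for *Col4a1* and from -3.819 to -2.015 for *Col4a2*, and was never called. None of the 7 collagens was called, beside 0.0734% of all genes (0.00816% higher and 0.0653% lower in *Fyn* KO), and at an unadjusted p under 0.05 both type IV chains passed, as did 1483 of 12257 genes. On day 0 none of the 7 was called either, beside 0.171% of all genes (0.0408% higher and 0.131% lower), and *Col26a1* and *Col5a1* passed at an unadjusted p under 0.05, as did 1785 of 12257 genes. The difference between the genotypes in the change from day 0 to day 4 was -2.39 ± 1.26 for *Col4a1* and -2.57 ± 1.22 for *Col4a2* (limma, both adjusted p = 1), and 0% of genes were called. At an unadjusted p under 0.05, 537 of 12257 genes passed and none of the 7 collagens. These comparisons share the WT or the *Fyn* KO libraries and are not independent of each other.

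Type IV collagen in E14 cells moved with markers of primitive endoderm from library to library. The 14 markers summed to 16.7, 159 and 228 FPKM in WT day 4 replicates 1 to 3, to 6.87, 7.45 and 42.5 in *Fyn* KO day 4, and to 2.86 to 14.96 in the 6 libraries of day 0. *Dab2*, an endocytic adaptor of this lineage, read 3.98, 41 and 54.1 FPKM in WT day 4 and 1.81, 1.61 and 10.1 in *Fyn* KO day 4. Over the 12 libraries *Col4a1* ran with the mean of these markers at r = 0.97 and with that of the neural progenitor markers at r = 0.67, whereas *Col2a1* ran at r = 0.48 with the former and 0.94 with the latter. The part of endoderm cells in the type IV values was not tested.

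Among genes that process or bind collagen, those called between the days of WT E14 cells stand beside 15.5% of all genes rising and 10.3% falling. Of 16 genes of hydroxylation, folding and export tested 3 were called, a share below the 25.8% of all genes: *Serpinh1* (HSP47), the collagen chaperone, rose from 8.56, 7.63 and 24.4 FPKM to 55.5, 60.9 and 95.4, by 2.44 ± 0.46 (SE, limma, adjusted p = 0.0038), while *Crtap* fell by 1.36 ± 0.22 and *Lepre1* by 0.75 ± 0.21; both proteins belong to the prolyl 3-hydroxylase complex. Among 6 genes of cleavage and cross-linking *Bmp1*, the protease that removes the C-terminal propeptide, and *Loxl2*, a lysyl oxidase, rose by 1.29 ± 0.39 and 1.84 ± 0.52, and the enhancers of that protease, *Pcolce* and *Pcolce2*, fell by 2.61 ± 0.47 and 1.13 ± 0.36. *Bmp1* read at most 0.713 FPKM on day 0, and *Loxl2* reached 1 FPKM there only in *Fyn* KO replicates 1 and 3. Both passed the filter through day 4, where they were higher, so the count of rises in this list is no support. Of 11 basement membrane partners *Lamb1* rose by 2.63 ± 0.64 and 3 fell, among them *Nid1*, the nidogen that joins laminin to type IV collagen, by 3.29 ± 0.56, and *Lama5* by 1.47 ± 0.30. All 3 receptors tested changed: *Ddr1* rose by 1.88 ± 0.39 and *Itgb1* by 0.66 ± 0.20, and *Ddr2*, which binds fibrillar collagens, fell by 2.42 ± 0.66. The median change of these 4 lists was 0.21, 0.41, -0.37 and 0.66, and that of all genes 0.08.

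In the R1 courses 30.4%, 26% and 35.8% of all genes rose and 24.7%, 18.5% and 24% fell, in the order first, parallel and adherent. Of the genes of hydroxylation, folding and export 2 of 18 tested rose and 5 fell in the first series, 2 and 3 of 18 in the parallel series, and 6 and 3 of 18 in the adherent monoculture. Of those of cleavage and cross-linking 1 of 12 rose and 8 fell in the first series, 1 and 2 of 10 in the parallel series, and 1 and 5 of 9 in the adherent monoculture. *Lox*, the lysyl oxidase of type I fibrils, fell from 124 FPKM at 0 h to 0.0134 at 126 h in the first series, by 1.17 ± 0.21 log2 units per 24 h (limma, adjusted p = 0.00021). *Pcolce* fell by 1.17 ± 0.08 there and by 0.62 ± 0.07 in the adherent monoculture. *Serpinh1* dipped and returned: 148 FPKM at 0 h, 15.4 at 42.5 h and 143 at 103 h in the first series, and 115 at 0 h, 56.0 at 53.5 h and 397.5 at 144 h in the adherent monoculture. *Crtap* and *Fkbp10*, an endoplasmic reticulum foldase, fell in all 3 courses and *Leprel1*, another prolyl 3-hydroxylase, rose in all 3.

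At 0 h the single cells held less *Col1a1*, *Col3a1*, *Col4a1* and *Col4a2* in RPKM than the population library did in FPKM. Values are RPKM after the authors' quantile normalisation, and many are small values above 0. Of 896 values of the 14 collagens 50.8% were 0, 34.0% lay between 0 and 1 RPKM, and 15.2% reached 1. For all genes these shares were 29.8%, 29.9% and 40.3%. At 0 h *Col1a1* reached 1 RPKM in 2 of 8 cells, with a highest value of 18.3 RPKM and a mean of 2.79, where the population read 291.8 FPKM. *Col3a1* was at most 0.0354 RPKM in those 8 cells, and 105 FPKM in the population. *Col4a1* and *Col4a2* had means of 0.0658 and 0.0182 RPKM in them, against 39.4 and 34.3 FPKM. The means of *Col9a3* and *Col20a1*, 7.21 and 0.734 RPKM, lay above the 0.998 and 0.686 FPKM of the population. At 9 h *Col1a1* reached 1 RPKM in 5 of 8 cells. At 144 h the cells had a mean of 27.0 RPKM of *Col1a2*, with 187.6 in cell 10, where the population read 13.1 FPKM. The scales of both tables differ, so the values stand side by side without a test. The 11 fibroblast markers in the single-cell table reached 1 RPKM in 2 (*Fap*) to 31 (*Fstl1*) of the 64 cells.

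**Figure D5:**
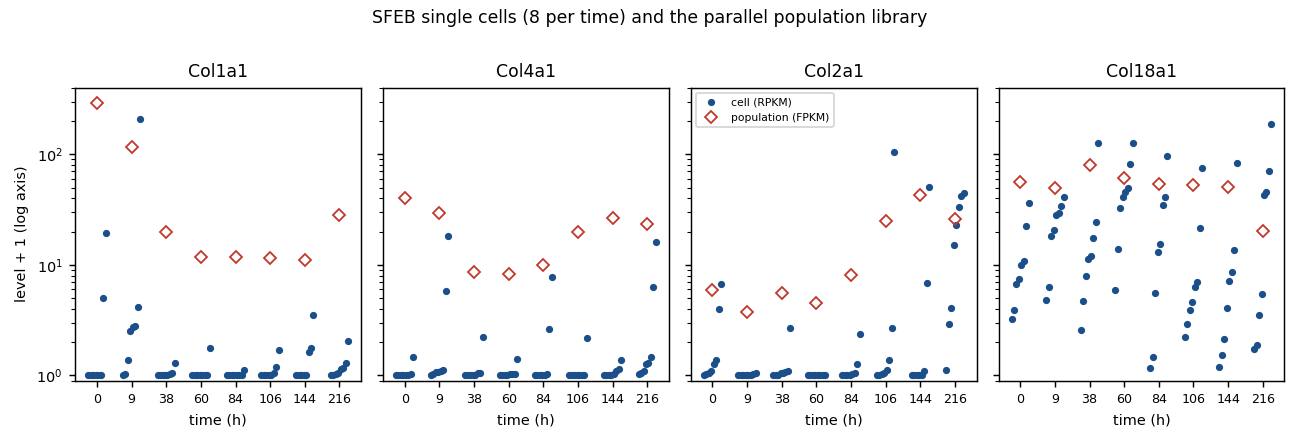
Level + 1 on a log axis of *Col1a1*, *Col4a1*, *Col2a1* and *Col18a1* in 8 single cells a time (points, RPKM) and in the population library of that time (diamonds, FPKM). *Col1a1* at 0 h was 291.8 FPKM in the population and at most 18.3 RPKM in a cell, *Col2a1* reached 1 RPKM in 7 of 8 cells at 216 h, and *Col18a1* was above 0 in all 64 cells.

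A single cell of 9 h, cell 9, held several early collagens together. It held 207.1 RPKM of *Col1a1*, 59.2 of *Col3a1*, 27.7 of *Col1a2*, 24.04 of *Col5a1*, 17.1 of *Col4a1* and 7.83 of *Col4a2*, and 121 RPKM of *Fbln2*. With *Col18a1* it had 7 of the 14 collagens at 1 RPKM or more, against 1 to 3 in the other 7 cells of that time. Of the 11 fibroblast markers 5 reached 1 RPKM in it, and 1 to 6 in the others. The mean of *Col1a1* at 9 h was 27.0 RPKM with this cell and 1.23 without it. Over all 64 cells, cell 9 included, *Col1a1* or *Col1a2* reached 1 RPKM in 19 cells and both in 3, and *Col4a1* or *Col4a2* in 14 cells and both in 4.

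*Col2a1* was the one collagen of 14 called over time in the cells, beside 2.73% of all genes, 1.67% rising and 1.07% falling. It reached 1 RPKM in 2 of 8 cells at 0 h, 0 at 9 h, 1 at 38 h, 0 at 60 h, 1 at 84 h, 2 at 106 h, 2 at 144 h and 7 at 216 h. At 216 h its values ran from 0.112 over a median of 18.2 to 43.6 RPKM, the lowest in cell 16. The slope of the 8 means of log values was 0.32 ± 0.08 log2 units per 24 h (SE, limma, adjusted p = 0.035), and the call did not hold under each alternative. Without the cells of 216 h the slope was 0.13 ± 0.08 (limma, adjusted p = 0.47), without those of 0 h 0.40 ± 0.09 (adjusted p = 0.10), and with the logarithm taken of the mean 0.49 ± 0.16 (adjusted p = 0.17). The population read 24.02 FPKM already at 106 h, where 1 of 8 cells, cell 12, held 105 RPKM and the other 7 at most 1.66. *Col18a1* reached 1 RPKM in 58 of 64 cells, with medians from 4.49 RPKM at 106 h to 42.5 at 60 h. Its highest value, 187.6 RPKM, was in cell 16 of 216 h. Of the rest, *Col5a1*, *Col9a2*, *Col13a1* and *Col23a1* reached 1 RPKM in 4 cells each, *Col20a1* in 3, *Col9a3* in 2, and *Col3a1* and *Col6a2* in 1, with highest values from 2.65 (*Col20a1*) to 59.2 RPKM (*Col3a1*).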

How the data were processed

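RNA from 113 samples had been made into unstranded libraries. Per the labels and the study's methods, reads were mapped with TopHat to mm9 (mm10 for E14 cells) and quantified with Cufflinks; the submitters' processing notes name TopHat2 2.0.8b and Cufflinks 2.1.1. The authors deposited FPKM for the adherent and E14 samples, FPKM after ComBat batch correction for the SFEB populations, and log10(RPKM + 1) after quantile normalisation for single cells, keeping genes above 0.5 RPKM in at least 8 cells. None of the tables holds read numbers, so depth per sample is unknown and no counting interval was made.

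Samples were grouped by their labels. With limma 3.58.1 in R 4.3.3, log2(FPKM + 1) of all genes with at least 1 FPKM in 3 samples was fitted per table (values below 0 set to 0): 4 groups of 3 in E14 cells with 5 contrasts, and a straight line over time in each course, in log2 units per 24 h. For single cells the line was fitted to 8 means, since cells are not replicates. P-values were adjusted by Benjamini-Hochberg over all genes tested, and called means an adjusted p below 0.05. Tables were scaled separately and were not tested against each other. The scripts were tested on simulated data, and tables and plots were made with Python 3.11.15. Positions are from GENCODE M1 (mm9).

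Collagens that reached 5 FPKM, were called in E14 cells or were above 0 in at least 8 cells are described, a few with their values in samples and the others by range or count; from each pathway list up to 4 called genes with the largest WT change are named, and for *Col1a1*, *Col4a1* and *Col2a1* the 5 genes most correlated over the SFEB populations. Further genes beside them were chosen with their values in view. The values of 1 called gene of these lists are not reported here. The members and lists were chosen with earlier results of these data known. Replicate numbers pair WT day 0 with day 4 and WT with *Fyn* KO on day 4, since same-numbered libraries deviated together there (correlations of deviations from the group means 0.199, 0.220 and 0.224, and 0.136, 0.258 and 0.240). The labels name no shared culture behind a number.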

Additional observations from a re-analysis of the deposited data

Results flagged for a closer look

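Among the single cells, the summed level of a collagen class set 1 cell apart from the other 7 of its time in 7 of 24 groups of cells examined, by a gap on the log10(RPKM + 1) scale that is large against the whole range. In normal values such a gap comes up in about 1 of 20 groups; these sums of few genes with many values near 0 are not normal, so the number of groups is no measure of chance. In the fibrillar class, cell 12 of 106 h summed to 106 RPKM, nearly all of it *Col2a1* (105 RPKM), while the other 7 cells held 0.0316 to 1.66 RPKM. Cell 2 of 38 h held 49.2 RPKM against 0.0152 to 1.73 RPKM in the others. Cell 2 of 60 h held 1.83 RPKM against 0 to 0.312 RPKM.

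In the basement membrane class, cell 10 of 144 h summed to 41.6 RPKM against 0 to 2.36 RPKM in the other cells, nearly all of it *Col4a2* (41.3 RPKM). Cell 5 of 60 h held 2.23 RPKM against 0 to 0.395, cell 4 of 38 h held 1.24 RPKM against 0 to 0.0587, and cell 4 of 0 h held 0.475 RPKM against 0.00553 to 0.123.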

How the results depend on the processing

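Directions held for all collagens named with a call under every alternative run, except that from 34 h on, a choice made after seeing the data, *Col5a2*, *Col5a1* and *Col1a2* had positive slopes in the first SFEB series (0.18, 0.19 and 0.18 log2 units per 24 h). Slopes that were not called turned too, in the parallel series those of *Col5a2*, *Col5a1*, *Col1a2*, *Col1a1*, *Col3a1* and *Col8a1* (0.23, 0.17, 0.16, 0.09, 0.29 and 0.04), in the first series those of *Col4a1*, *Col4a2* and *Col9a3*, and in the adherent monoculture that of *Col5a1*. Of the 3 collagens called in WT E14 cells between the days, leaving out 1 replicate at a time left 2 to 3, beside 15.1% to 23.3% of all genes. *Col2a1* was lost without WT day 0 replicate 3 (limma, adjusted p = 0.0523). With no filter on low values 7 of 44 were called there, beside 17.1% of all genes, the added ones being *Col6a2*, *Col7a1*, *Col22a1* and *Col24a1*. In *Fyn* KO cells, where 0 were called, no filter gave 3 of 44 (*Col6a1*, *Col6a2* and *Col22a1*), beside 11.8% of all genes. Quantile normalisation gave 1 (*Col26a1*, lower by day 4), beside 19.6% of all genes. Leaving out 1 replicate gave 0 to 2, beside 8.54% to 25.1%. With the replicate number as a block, 3 collagens were called in WT and 1 in *Fyn* KO (*Col9a2*, 1.10, limma, adjusted p = 0.017). Of all genes 29.1% and 22.7% were called with that block. It changed no other E14 call of a collagen. The numbers did not pair *Fyn* KO day 0 with day 4 (correlations 0.0239, 0.0899 and 0.00112).

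In the parallel series a natural spline called 20 collagens and the straight line 7, beside 72.2% and 44.5% of all genes. Among single cells the call of *Col2a1* was the only 1, and there were 0 calls with the logarithm taken of the mean, without the cells of 0 h and without those of 216 h. Of all genes 0.157%, 0.0524% and 0% were called in these runs. Of the 48 collagen calls of the 3 courses, 3 were lost with a pseudocount of 0.1, 3 with quantile normalisation, 6 without the 0 h library, 8 without the last library and 22 from 34 h on, of which 0, 0, 3, 1 and 12 were genes that no longer passed the filter on low values; otherwise the cause was not tested. Without the adherent libraries of 144 and 216 h, also a choice made after seeing the data, 3 of 22 calls were lost (*Col4a2*, *Col18a1* and *Col23a1*). A course has 1 library a time, which limits each slope, and 29 collagens of E14 cells never reached 1 FPKM.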
